A study of Mus musculus with 2 samples.

Results

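A DNase I footprint is a short stretch inside accessible chromatin where the enzyme cut less often than around it, and the core promoter is the sequence next to the transcription start site (TSS) where RNA polymerase II and the general transcription factors assemble. Core promoter footprints were taken here as the listed footprints whose middle lay from 100 bp upstream to 50 bp downstream of the 5′ end of a protein-coding gene in GENCODE M21, read on the gene's strand. They numbered 22232 of 227153 footprints in replicate 1 (9.79%, 95% Wilson interval 9.67 to 9.91%) and 18029 of 118610 in replicate 2 (15.2%, 15.0 to 15.4%), so the share was 12.5% ± 3.83 (SD, n = 2). In these counts each footprint was counted once, at its nearest TSS. In replicate 1, 1117 members lay in the windows of more than 1 gene, and in replicate 2, 938 did.

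The libraries came from hippocampus of female B6CASTF1/J mice aged 2 months. A second label gives the tissue as a layer of the hippocampus and does not say which. B6CASTF1/J mice are first-generation hybrids between C57BL/6J and CAST/EiJ, a strain derived from another mouse subspecies. Both libraries were placed on the C57BL/6J assembly mm10 (GRCm38), and the sources used here do not say how CAST/EiJ alleles were handled. There was 1 group of 2 libraries, numbered as biological replicates 1 and 2, with no treatment and no control group. The labels list 1 donor record for both and a biosample record for each, and do not say whether they came from separate animals, so the spread between them may be technical. Comparisons are therefore between core and flank footprints, where the flank is the sequence 150 to 1000 bp to either side of the same TSSs. The sources used here do not state the number of sequenced fragments. Replicate 1 had 129779 peaks in the longer of its 2 lists and replicate 2 had 71895. The tissue holds neurons, glia and vessels, and a bulk library does not tell a site footprinted in few cell types from one footprinted weakly in all of them.

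Many mammalian promoters lie in CpG islands and hold several short binding sites in their last stretch before the TSS. The GC box is bound by SP and KLF zinc finger proteins, the CCAAT box by the trimeric factor NF-Y, the cAMP response element (CRE) by CREB and ATF proteins, and NRF1, ETS proteins, YY1 and ZBTB33 each have sites of their own. The TATA box is bound by TBP, the DNA-binding subunit of the general factor TFIID, a short way upstream of the TSS, while YY1 sites often lie just downstream of it. A factor that stays on its site long enough to shield it leaves a footprint, and a factor that leaves quickly may not.

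The sequence just upstream of 5 genes shows how footprints and sites were laid out. Each line gives the 100 bases before the TSS, 5′ to 3′ on the gene's strand, and capitals mark bases that lay in a footprint in both libraries.
Kdm6a: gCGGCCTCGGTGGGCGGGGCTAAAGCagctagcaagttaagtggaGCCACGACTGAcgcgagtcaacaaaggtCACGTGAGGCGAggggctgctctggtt
Ing3: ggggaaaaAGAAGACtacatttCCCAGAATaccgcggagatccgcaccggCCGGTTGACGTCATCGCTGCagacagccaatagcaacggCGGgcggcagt
Polr2a: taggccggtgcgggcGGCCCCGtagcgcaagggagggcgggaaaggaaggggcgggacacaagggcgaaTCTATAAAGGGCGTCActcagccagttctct
Jun: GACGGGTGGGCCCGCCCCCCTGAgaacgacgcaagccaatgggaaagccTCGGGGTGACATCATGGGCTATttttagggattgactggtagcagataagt
Psmc4: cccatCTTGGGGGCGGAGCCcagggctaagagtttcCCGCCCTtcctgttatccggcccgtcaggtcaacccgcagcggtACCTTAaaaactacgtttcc
The first 3 are chrX:18162475-18162574 (plus strand), chr6:21949471-21949570 (plus strand) and chr11:69758638-69758737 (minus strand) of GRCm38. The other two are chr4:95052223-95052322 and chr7:28050102-28050201, both on the minus strand. None of these stretches overlaps an annotated exon. At Kdm6a, which encodes a histone demethylase, 48 of the 100 bases were footprinted in both libraries, in 3 stretches. One of them covered a GC box and another a CACGTG E-box. At Ing3, which encodes a subunit of a histone acetyltransferase complex, a CRE from base −45 to −38 lay wholly in a footprint in each library, while a CCAAT box at −24 to −20 lay in none. At Polr2a, which encodes the largest subunit of RNA polymerase II, the TATA box at −29 to −24 was covered in both libraries, and 2 of its 3 GC boxes were outside every footprint. At Jun, a component of AP-1, the second stretch holds TGACATCA, a sequence not among the motifs searched, and the CCAAT box at −65 to −61 was not covered. Psmc4 encodes a proteasome ATPase, and both of its GC boxes were covered in both libraries.

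Single footprints are shown for 8 motifs, in windows of 30 bases read on the gene's strand with the motif in capitals. Each was found in both libraries and was taken at 1 of the 2 promoters with the highest peak value that held the motif. A motif within 20 bp of the footprint middle was enough, so the capitals do not mark footprinted bases.
Mrpl17: ccgagttactGCGCATGCGtcctctgagac
Senp2: gcggaagaaggTGACGTCAacggcttctag
Pkn2: agagcccgcCCAGCAGGGGGCggggccccg
Morn1: ggccacgcccCATGGCAACcggaggccaat
Ttc41: cccggggaacCACTTCCGGcttctagcgaa
Dennd4a: cgtcactcccAAGATGGCGccggccgcggc
Bahcc1: ggccgagcagCCAATCAgcgctcgggctgc
Hspa5: agccaaTGAGTCAgcccggggggcgtagca
The NRF1 site of Mrpl17 (mitochondrial ribosomal protein) is in chr7:105811079-105811108, minus strand, and the CRE of Senp2 (SUMO protease) is in chr16:22009398-22009427, plus strand. The CTCF match of Pkn2 (protein kinase) is in chr3:142882044-142882073, minus strand, and the RFX match of Morn1 is in chr4:155086534-155086563, plus strand. The long ETS site of Ttc41 is in chr10:86705800-86705829 and the long YY1 site of Dennd4a in chr9:64811327-64811356, both on the plus strand. The long CCAAT box of Bahcc1 is in chr11:120232849-120232878 and the AP-1 site of Hspa5 (an endoplasmic reticulum chaperone) in chr2:34771902-34771931, both on the plus strand. The windows of Mrpl17, Ttc41 and Dennd4a overlap an annotated exon and the others do not. The middles of the replicate 1 footprint and of the motif were compared at each of the 8 sites. They were at −71.5 and −71.5 at Senp2, 4.5 and 5 at Mrpl17, −53 and −54.5 at Pkn2, −31 and −29 at Morn1, and 6 and 3 at Ttc41, in bp from the TSS. They were further apart at Dennd4a (6.5 and 1), at Bahcc1 (−79 and −85) and at Hspa5 (−45 and −59). The AP-1 site of Hspa5 only touched the edge of the replicate 1 footprint and lay outside that of replicate 2. At Bahcc1 the replicate 1 footprint covered only part of the site.

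Core promoter footprints were densest just upstream of the TSS. At TSSs with a peak over the core promoter (10654 in replicate 1 and 10218 in replicate 2), the 10-bp bin from −20 to −11 held the most, 18.2 and 16.3 footprints per kb of listed sequence. Listed sequence means bases in the authors' list of cut-rate FDR values under 0.05, which held nearly all footprints. The lowest bin of the core was +30 to +39, with 10.9 and 8.98 per kb. Of all members 70.5% and 70.4% lay upstream of the TSS, and the median position was −25.5 bp (quartiles −60 and 6) in replicate 1 and −24 bp (−58 and 6) in replicate 2. The window reaches 100 bp upstream and only 50 bp downstream, so evenly spread footprints would also lie mostly upstream. The upstream share and the median are therefore largely set by the window. Density fell to a minimum of 2.00 and 1.71 per kb near 400 bp upstream and of 1.95 and 1.44 per kb near 320 bp downstream. It was higher again towards 1000 bp, where few bases were listed and the count of footprints was lower still. In replicate 1 the bin from −390 to −381 held 79 footprints with 37.1% of bases listed, and the bin from −1000 to −991 held 33 with 6.17%. Downstream, the bin from 310 to 319 held 114 with 55.0%, and the bin from 990 to 999 held 56 with 11.2%.

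**Figure D1:**
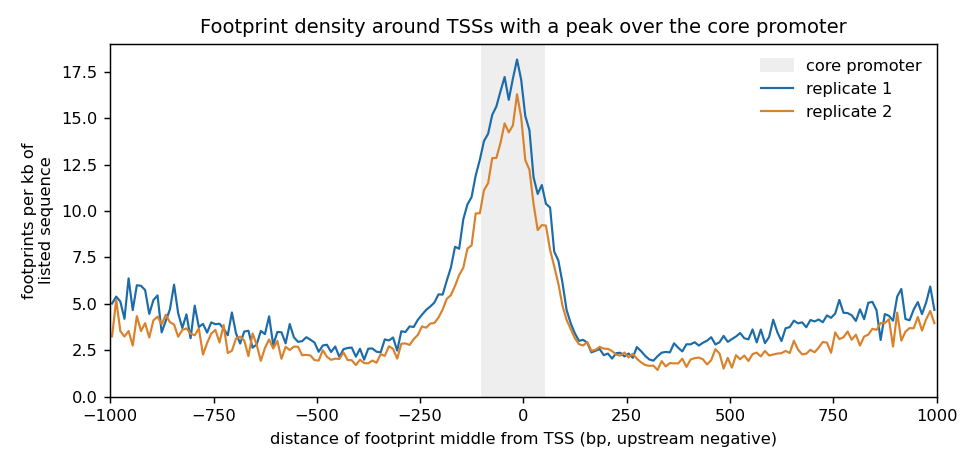
Footprints per kb of listed sequence (y axis) in 10-bp bins by distance of the footprint middle from the TSS (x axis, bp, upstream negative), for TSSs with a peak over the core promoter, 1 line per library. The highest bin of each line is −20 to −11, at 18.2 in replicate 1 and 16.3 in replicate 2, inside the grey core promoter. The outermost bins rest on few listed bases.

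Over the whole window, these TSSs held 14.9 core against 3.26 flank footprints per kb of listed sequence in replicate 1, a ratio of 4.57, and 12.7 against 2.54 in replicate 2, a ratio of 4.99. Here a footprint counts at every TSS in reach. One in the core of another of these TSSs is left out of the flank count, but its bases stay in the flank length. With such footprints kept, the upstream and downstream flanks held 4.15 and 3.02 per kb in replicate 1 and 3.32 and 2.33 in replicate 2. With sequence under the longer peak list as the denominator the ratios were 2.31 and 2.44. At TSSs chosen for having a core footprint, which raises the core value by construction, the same denominator gave 2.60 and 2.96 (2.78 ± 0.254, SD, n = 2). The direction was the same under each denominator run, while its size depended on what counted as available sequence. Of core promoter footprints 93.8% and 94.3% overlapped a peak of the longer list, against 82.9% and 85.1% of flank footprints.

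Core promoter footprints were wider than flank footprints. Their median width was 11 bp (quartiles 8 and 18) against 9 bp (7 and 13) in replicate 1, and 10 bp (7 and 15) against 9 bp (7 and 12) in replicate 2. Widths of 20 bp or more made up 20.8% of core and 12.2% of flank footprints in replicate 1, and 14.1% and 7.43% in replicate 2. The shortest listed width, 7 bp, made up 21.9% of core against 29.6% of flank footprints in replicate 1 and 27.2% against 37.2% in replicate 2. Both tails therefore lay on the same side in each library.

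They were also found again more often. Of replicate 2's core footprints 69.9% overlapped a replicate 1 footprint by at least 1 bp, against 46% of its flank footprints, a difference of 23.8 percentage points (95% Newcombe interval 22.7 to 25). In the other direction the shares were 54.4% and 33.8%, a difference of 20.6 points (19.6 to 21.6). Replicate 1 has more footprints, so the second share has a lower ceiling. All intervals on shares cover counting error only, and they are too narrow because neighbouring footprints share sequence. Core footprints are denser and wider, so chance overlap is also more frequent there, and how much of the difference this accounts for was not tested. With 2 libraries the smallest two-sided p of an exact test across libraries is 0.5, so none was run.

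Promoters usually held several members. Where a gene had any, the median was 2 per gene and the maximum 7 in both libraries. Neighbouring footprints at the same TSS were a median of 37 bp (quartiles 20.5 and 56.5) and 36 bp (19.5 and 57) apart, and 79.5% and 71.2% of TSSs with a member had at least 2. A core footprint was listed for 9336 of 21938 protein-coding genes in replicate 1 (42.6%), for 8494 in replicate 2 (38.7%) and for 7953 in both (36.3%). For 7108 genes (32.4%) at least 1 footprint of replicate 1 was itself found in replicate 2.

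The share depended on how accessible the promoter was. The authors' peak value is a signal scaled to the library, and genes with a peak over the core were ranked by it into 5 classes of equal size. In replicate 1 the share with a footprint was 53.8% in the lowest class, 84.3% in the next, and 98.9% in the highest. In replicate 2 it was 52.3%, 78.7% and 95.8%. Among genes with a peak, the median peak value was 3.73 with a footprint and 0.849 without in replicate 1, and 3.19 and 1.31 in replicate 2. Whether the missing footprints at weak peaks reflect the number of cuts there was not tested. Promoters with a footprint were also richer in CpG, with a median observed over expected ratio of 0.868 against 0.686 in replicate 1 and 0.885 against 0.746 in replicate 2.

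The sequence around core footprints was compared with that around flank footprints for 24 motifs, on both strands, within 20 bp of the footprint middle. The motifs of this comparison, named by the protein or element, were searched as exact letters, except that the AP-1 site allows any base at its middle and CTCF and NFI were searched as degenerate consensuses. The interval of the core minus flank difference lay above 0 in each library for 12 motifs and below 0 in each for 2. GC content differed as well, at 66.8% around core and 63.2% around flank footprints in replicate 1, and 67.5% and 65.0% in replicate 2, and its part in these differences was not tested.

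The GC box (GGGCGG) was the most frequent, near 27.4% of core and 18.3% of flank footprints in replicate 1 (difference 9.20 points, 8.34 to 10.04) and near 27.3% and 18.5% in replicate 2 (8.87, 7.87 to 9.86). It stands in 36.5% of all 21922 core promoters. The long SP/KLF site (GGGGCGGGG), which contains the GC box and stands in 11.2% of promoters, was near 7.12% of core and 3.69% of flank footprints in replicate 1 and 6.94% and 3.44% in replicate 2. ETS sites (CCGGAAG, in 8.42% of promoters) had a larger ratio, 5.22% against 1.69% (3.08 times) in replicate 1 and 5.45% against 1.43% (3.80 times) in replicate 2. Their longer form, CCGGAAGTG, was near 1.31% against 0.387% and 1.55% against 0.285%. ETS proteins are a large family that includes GABPA, a regulator of housekeeping and mitochondrial genes.

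The CRE (TGACGTCA, in 1.94% of promoters) was near 1.52% of core and 0.500% of flank footprints in replicate 1 and 1.83% and 0.491% in replicate 2. Its shorter form TGACGT, which lies inside it, was near 4.19% against 1.98% and 4.57% against 2.05%. NRF1 sites (GCGCATGCG, in 1.66% of promoters) were near 1.63% against 0.727% and 1.80% against 0.953%. NRF1 is an activator of nuclear genes for mitochondrial proteins. ZBTB33, a protein known to bind methylated CpG, has the site TCTCGCGAG (0.680% of promoters), which was near 0.486% against 0.180% and 0.577% against 0.167%. All of these sites contain CpG, which is frequent in the core promoters as a whole.

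The CCAAT box (CCAAT, in 24.9% of promoters) was near 10.5% of core and 7.27% of flank footprints in replicate 1 and 10.8% and 6.89% in replicate 2. The longer form CCAATCA (6.09% of promoters) was near 2.65% against 1.41% and 2.84% against 1.21%. The TATA box (TATAAA, 6.94% of promoters) was near few members, 0.688% against 0.427% and 0.693% against 0.304%. YY1 sites (ATGGCGG, 3.44% of promoters) were near 1.55% against 1.2% and 1.67% against 1.07%. For the longer YY1 form AAGATGGCG and for the CACGTG E-box the interval excluded 0 in 1 library only. AP-1 sites (TGANTCA, 3.26% of promoters), bound by FOS and JUN proteins, were less frequent near core footprints, at 0.324% against 0.600% in replicate 1 (difference −0.28 points, −0.43 to −0.14) and 0.211% against 0.491% in replicate 2. The CAGATG E-box (7.23% of promoters), bound by neuronal bHLH factors such as NEUROD proteins, was at 1.02% against 1.72% and 1.04% against 1.53%. Both motifs are also rarer in core than in flank sequence. In replicate 1 AP-1 sites stood in 0.3845% of core and 0.723% of flank windows of the same length. For the CAGATG E-box these shares were 1.10% and 2.11%. With a flank of 150 to 500 bp neither AP-1 nor the CAGATG E-box was called lower in each library, with mean differences of −0.16 and −0.22 points.

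The other 8 motifs, for ZNF143, the TCT initiator, MEF2, EGR, RFX, REST, CTCF and NFI, had intervals that included 0 in both libraries. Each was near fewer than 0.4% of core footprints. No match to any of the 24 motifs lay near 50.7% and 50.2% of core footprints, and near 66.3% and 67.2% of flank footprints.

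The core sequence itself is rich in many of these motifs, so the share near footprints was set beside the share of windows of the same length at every position of the same core promoters. The CCAAT box was only 1.08 and 1.10 times as frequent near footprints as at any position of the core, and YY1 sites 1.02 and 1.04 times. The GC box was at 1.29 and 1.25 times, ETS at 1.2 and 1.19, CRE at 1.75 and 1.98, NRF1 at 1.95 and 2.05 and CTCF at 2.14 and 2.24. AP-1 was below its share in the core, at 0.842 and 0.689 times, and the CAGATG E-box was near its share, at 0.926 and 1.003 times. The same ratio in the flank was larger for these motifs apart from AP-1 and the CAGATG E-box, which alone among those just named are more frequent in flank sequence. It was 1.64 and 1.55 for the CCAAT box, 3.18 and 2.81 for YY1, 11.7 and 11.3 for CRE and 18.4 and 23.6 for NRF1. For AP-1 it was 0.831 and 0.678, and for the CAGATG E-box 0.816 and 0.738. The TATA box had a ratio of 1.155 and 1.241 in the core and a lower one, 0.262 and 0.187, in the flank. It also stood in fewer core than flank windows, 0.596% against 1.63% in replicate 1. Flank windows include unlisted sequence: in replicate 1, 5182.6 of 15881.4 kb of flank was listed, against 1392 of 1409 kb of core. In listed flank sequence, NRF1 sites stood in 0.115% of windows in replicate 1, against 0.0395% of all flank windows. AP-1 sites stood in 0.550% against 0.723%, so the flank ratios depend on this choice.

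The question was then turned round, to ask which sites in accessible core sequence lay in a footprint. Of all core bases in listed sequence at TSSs with a core peak, 20.9% lay in a footprint in replicate 1 and 15.9% in replicate 2. The same shares in the flank were 4.21% and 2.92%. These are the values to read each motif against.

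NRF1 sites were in footprints most often. In the core 91.0% of 575 matches had their middle base in a footprint in replicate 1 (95% Wilson interval 88.3 to 93.0%) and 81.9% of 576 in replicate 2 (78.6 to 84.9%). NRF1 sites in the flank were also mostly footprinted, at 72.0% of 282 and 66.3% of 285. The NRF1 site is nearly its own reverse complement, so 1 site can count on both strands, and the intervals for NRF1 are too narrow. The same holds for the ZBTB33 site. CREs followed, with 86.5% of 369 (82.6 to 89.6%) and 80.7% of 357 (76.3 to 84.4%) in the core against 50.3% and 42.6% in the flank. The shorter form outside a full CRE was at 53.9% and 44.6%.

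CTCF, the insulator protein that anchors chromatin loops, had 83.1% of 65 core matches in a footprint in replicate 1 (72.2 to 90.3%) and 69.8% of 63 in replicate 2 (57.6 to 79.8%). EGR sites (GCGTGGGCG, of which 63.8% overlap a GC box) were at 71.3% of 94 and 60.0% of 95, against 25.3% and 19.2% in the flank. EGR proteins include the activity-induced factor EGR1. RFX sites (GTTGCCATG) were at 71.2% of 73 and 56.5% of 69. ZBTB33 sites were at 57.7% and 43.0%, and ZNF143 sites (ACTACAATT) at 56.1% of 57 and 35.2% of 54. For CTCF, RFX and ZNF143 the flank shares were also above the level of flank bases, at 59.8% and 44.0%, 38.8% and 25.3%, and 26.3% and 14.0%.

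Long SP/KLF sites were at 53.4% of 2482 and 37.4% of 2406, and GC boxes outside them at 38.4% and 26.7%. Long ETS sites were at 42.2% and 33.9%, and other ETS sites at 28.3% and 18.3%. YY1 sites were at 32.2% and 26.0%. For the GC box and ETS the longer site was footprinted more often. The longer YY1 form, at 27.9% and 19.2%, and the longer CCAAT box, at 19.2% and 11.8%, had lower shares than the short forms. For both motifs the intervals of the 2 forms overlapped in each library. In replicate 1 they were 16.9 to 21.8% for the longer and 18.9 to 21.4% for the short CCAAT box. The longer YY1 form does not contain the short one, and 66.0% of its core matches overlap one, so that comparison is between partly different sites. Among GC box, ETS and YY1 sites, shares of both forms lay above the base level of their library, although replicate 2's interval for the long YY1 form (15.0 to 24.3%) included it. The TATA box (22.1% of 285 and 16.9% of 249) and the CCAAT box (20.2% of 4080 and 14.4% of 3914) were near that level, with replicate 2's CCAAT interval (13.3 to 15.5%) just below it. In the flank the TATA box was at 2.0% in each library, below replicate 1's base level there and with replicate 2's base level inside its interval (1.19 to 3.21%). The CCAAT box in the flank was above the base level, at 7.54% and 4.44%, as was its longer form, at 11.2% and 6.93%.

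AP-1 sites were in footprints least often among motifs with at least 100 core matches, at 6.22% of 177 (3.51 to 10.8%) in replicate 1 and 3.38% of 148 (1.45 to 7.66%) in replicate 2. Both intervals lie below the share of all core bases. The TCT initiator (CTCTTTCC), the start site motif of ribosomal protein genes, was at 8.05% of 149 and 8.96% of 134. These matches lie on either strand and anywhere in the core. On the gene's strand from 0 to 24 bp, 2 of 7 matches were in a footprint in each library, too few to place the motif at the TSS itself. REST sites (TTCAGCACC), bound by a repressor of neuronal genes, were at 10.3% of 29 and 3.57% of 28, numbers too small to place them.

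**Figure D2:**
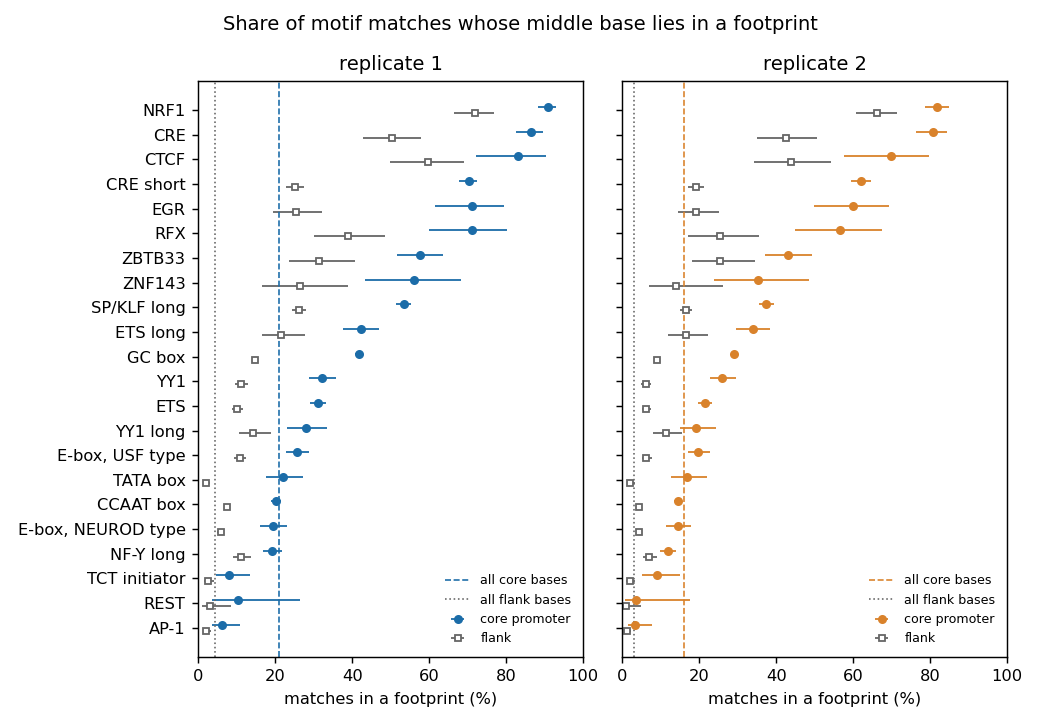
Share of motif matches whose middle base lay in a footprint (x axis, %), for motifs with at least 20 core matches (y axis), in the core promoter (filled circles) and in the flank (open squares) of TSSs with a core peak, 1 panel per library. Bars are 95% Wilson intervals, and vertical lines give the share of all core bases (20.9% and 15.9%) and of all flank bases (4.21% and 2.92%). NRF1 and CRE lie at the top and AP-1 at the bottom in both panels; "CRE short" is TGACGT, and the USF and NEUROD types of E-box are CACGTG and CAGATG.

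Coverage by footprints around the sites took different shapes. Around NRF1, CRE and long SP/KLF sites it peaked at the site and fell to 16.5% and 13.2% (NRF1), 15.2% and 12.7% (CRE) and 16.4% and 11.9% (SP/KLF) on average 20 to 40 bp away. Around long CCAAT boxes it was lowest at the middle of the site, at 19.2% and 11.8%, against a mean of 26.9% and 19.9% at 20 to 40 bp. Around AP-1 sites it fell from 21% and 16.3% at that distance to 6.22% and 3.38% at the middle. At least 1 base of the long CCAAT box lay in a footprint at 34.8% and 27.4% of matches. For the AP-1 site, which is as long, this was 19.8% and 12.8%. Any stretch of this length is touched more often than its middle base is covered. No base level was set for the share touched, so it does not show where the shortfall at the middle lay. Around the TATA box coverage was 20.7% and 15.7% at its lowest within 10 bp, 1 bp past the middle, between higher values to either side that reached 27.9% in replicate 1 (at −7 bp) and 25.7% in replicate 2 (at 8 bp). The mean 20 to 40 bp away was lower than both, at 12.9% and 11.2%.

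**Figure D3:**
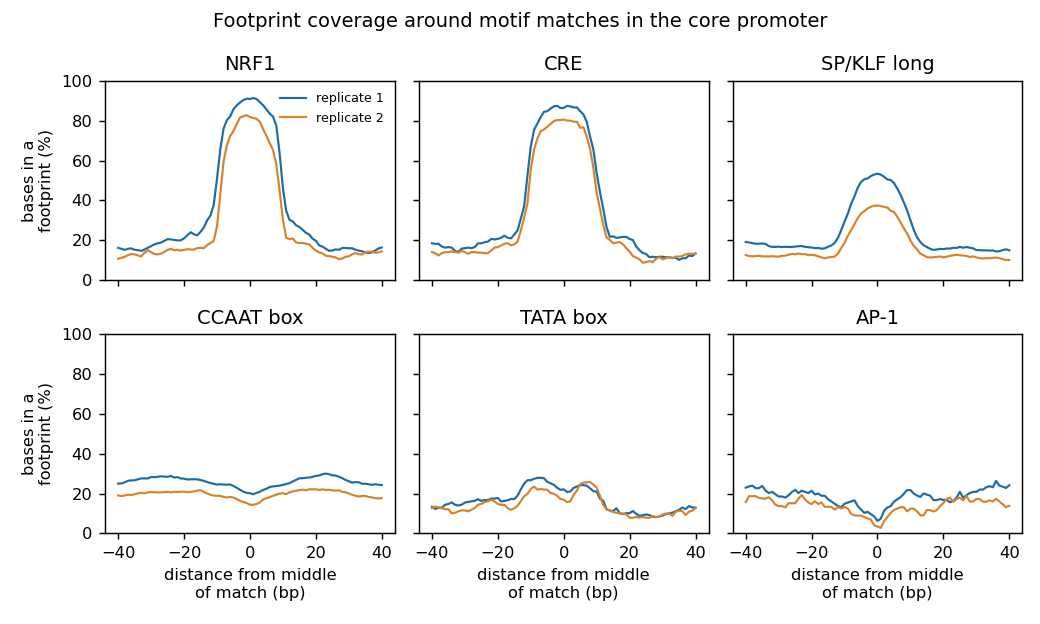
Share of bases in a footprint (y axis, %) by distance from the middle of core promoter motif matches (x axis, bp, on the strand of the gene) for 6 motifs, 1 line per library. NRF1, CRE and long SP/KLF sites show a peak at 0, and CCAAT box and AP-1 sites a dip, in both libraries.

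DNase I has cutting preferences of its own that depend on sequence, and the sources used here do not say how the footprint list allowed for them. Their part in the peaks and dips at single motifs was not tested.

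Footprints that held the middle of a site differed in width by motif. CTCF footprints were the widest among motifs with at least 40 such footprints in each library, with a median of 26 bp in replicate 1 and 23.5 bp in replicate 2. CRE footprints had medians of 23 and 21 bp, NRF1 21 and 18 bp, RFX 21 and 19.5 bp and GC box 16 and 13 bp. YY1 footprints, at 12 and 10 bp, were near the width of footprints without the motif, 11 and 10 bp. A wide footprint is more likely to hold a given base, which raises these medians by construction.

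Sites near footprints found in both libraries differed in position by motif. The core window reaches further upstream than downstream, so a median somewhat upstream of the TSS follows from the window alone. The TATA box had its median at −27.5 bp (quartiles −40.75 and −8.25, 76 matches), and 28 of the 76 lay between −30 and −21. Of the 76 matches 81.6% read on the gene's strand (71.4 to 88.7%). The CCAAT box had its median at −46 bp (−68 and −20, 1271 matches) with 50.5% on the gene's strand, and the GC box at −30.5 bp (4082 matches). CCAAT boxes thus lay further upstream than TATA boxes and in either orientation. CTCF matches lay furthest upstream among motifs with at least 40 matches, at −62.5 bp (46 matches), with 80.4% on the gene's strand (66.8 to 89.4%).

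ETS sites lay nearer the TSS, with a median of −9 bp for the short and −7 bp for the long form, and 61.4% of 184 long sites read on the gene's strand (54.2 to 68.2%). NRF1 and CRE had medians of −22 and −21.5 bp. YY1 sites lay downstream, at a median of 19 bp for the short form and 23 bp for the long form. Of 66 long YY1 sites 74.2% read on the gene's strand (62.6 to 83.3%). The 12 other motifs with over 100 such matches all had their median upstream of the TSS, the side to which the window reaches further.

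**Figure D4:**
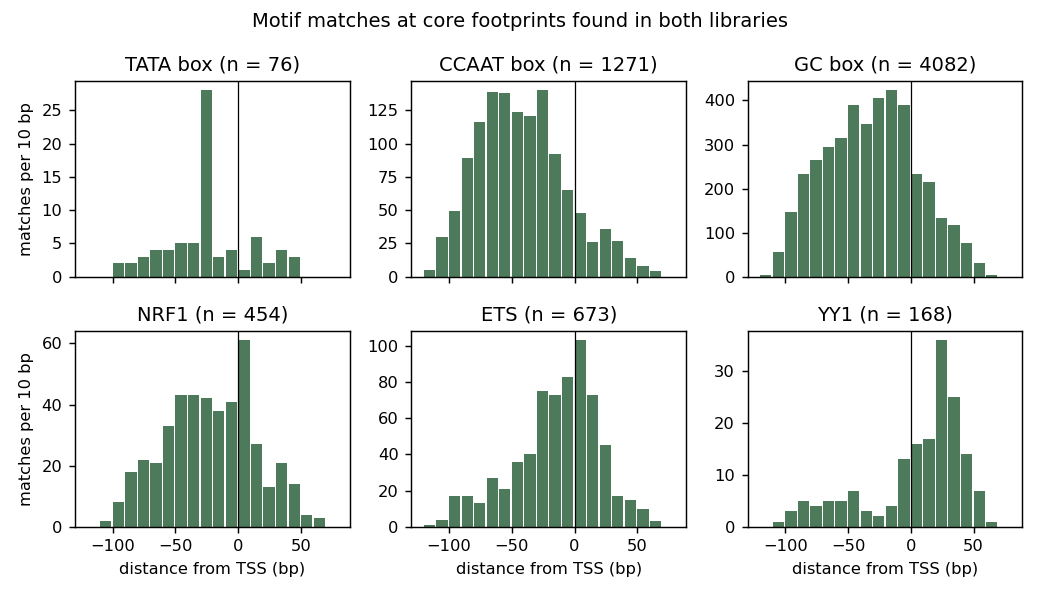
Number of motif matches per 10-bp bin (y axis) by distance of the match middle from the TSS (x axis, bp) within 20 bp of core footprints found in both libraries, for 6 motifs with the total n in each title. TATA box matches are concentrated in the bin from −30 to −21 (28 of 76), and YY1 matches lie mostly downstream of the TSS (median 19 bp).

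These positions follow where the sites stand in the genome as well as where footprints lie, which the share in footprints separates. TATA boxes on the gene's strand from −36 to −22, around the position the element is known for, had their middle in a footprint at 20 of 77 matches in replicate 1 (26.0%, 17.5 to 36.7%) and 17 of 67 in replicate 2 (25.4%, 16.5 to 36.9%). All bases at these positions were at 24.6% and 19%, inside both intervals. Long YY1 sites on the gene's strand from 0 to 50 bp made up 177 of the core matches and were in a footprint at 21.5% and 15.8%, against 16.5% and 12.5% of all bases there, which lie inside the intervals (16.1 to 28.1% and 11.2 to 21.9%). On the other strand at these positions the long YY1 sites were fewer and had higher shares, 45.7% of 35 (30.5 to 61.8%) and 25% of 36 (13.8 to 41.1%). Upstream of the TSS, 34 long YY1 sites in each library read on the gene's strand, at 47.1% (31.5 to 63.3%) and 29.4% (16.8 to 46.2%). All bases there were at 23.2% and 17.7%, the second inside replicate 2's interval. Upstream sites on the other strand, 30 and 29, were at 23.3% (11.8 to 40.9%) and 20.7% (9.85 to 38.4%), with the base level inside both intervals. Long ETS sites from −30 to 20 bp were likewise more numerous on the gene's strand (145 and 149) than on the other (104 and 102), with shares of 41.4% and 34.9% against 54.8% and 44.1%. CTCF sites upstream of the TSS were in a footprint about as often on the gene's strand (82.4% of 51 and 70.6% of 51) as on the other (81.8% of 11 and 70.0% of 10).

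Gene lists were read against the shares of all protein-coding genes, 42.6% and 38.7%. Among general transcription factor genes, which encode the proteins that position the polymerase, 28 of 31 had a core footprint in replicate 1 and 27 in replicate 2. Among RNA polymerase II subunit genes it was 11 of 12 in each library. The members with none in either library were Taf4, Taf9 and Polr2f, named after their values were seen, and each of them had no peak over the core window at its annotated 5′ end. The rule uses the outermost annotated end of each gene, so a gene that starts elsewhere is counted as having none. Genes for promoter-binding factors, among them Nfya, Nfyb and the SP and ETS families, had one in 26 and 24 of 35.

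Genes for cytosolic ribosomal proteins had a core footprint in 64 and 61 of 79, nuclear genes of oxidative phosphorylation in 65 and 62 of 86, and proteasome subunits in 31 and 29 of 39. Replication-dependent histone genes, which lie in clusters and are expressed in dividing cells, had one in 50 and 41 of 67. Olfactory receptor genes had one in 3 and 0 of 1135, and a count of 0 allows a share of up to 0.264% (3 counts), or 0.337% by the Wilson interval. The 3 were Olfr1033, Olfr287 and Olfr958, named after their values were seen. These lists differ in peak value too, with a list median in replicate 1 of 5.26 for ribosomal proteins, 3.90 for oxidative phosphorylation and 0 for olfactory receptors, and the part of accessibility in their shares was not tested.

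Pan-neuronal genes, which mark neurons of any kind, had a core footprint in 12 and 11 of 14. Nefm (4 in each library) and Nefl (5 and 4), a pair of neurofilament genes, had 3 and 2 found in both libraries, and Snap25 also had 2. Rbfox3 and Eno2 had none in either library, with no core peak for Rbfox3 and a peak in replicate 1 only for Eno2. Activity-regulated genes, which neurons induce on firing, had one in 13 and 12 of 21. Jun had 5 in each library. Of others, named after their values were seen, Arc had 3 in each, Egr1 1 in each and Fos 2 and 3. Fosb, Egr2, Egr3, Npas4, Nr4a1, Nr4a2, Bdnf and Dusp1 had none in either, and of these 8 none had a core peak in both libraries.

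**Figure D5:**
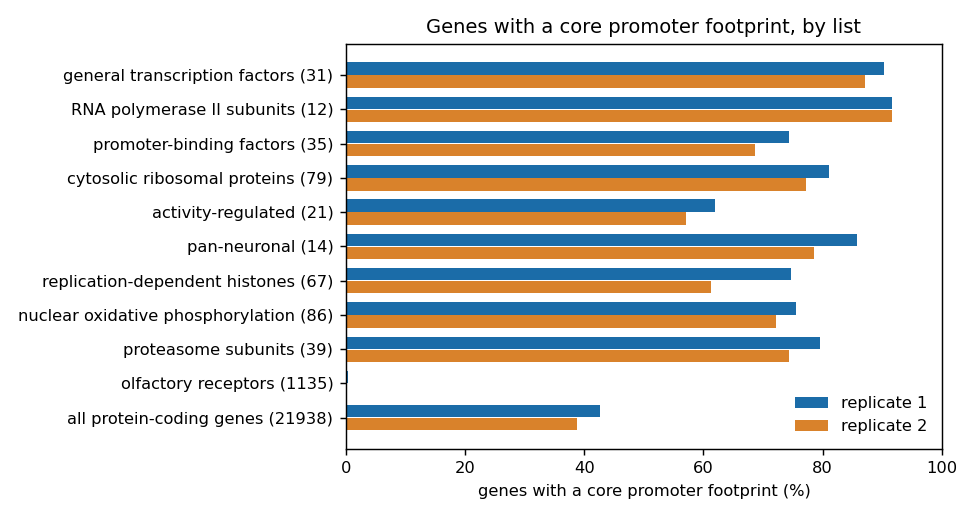
Share of genes with at least 1 core promoter footprint (x axis, %) by gene list (y axis, number of genes in brackets), 1 bar per library. General transcription factor and RNA polymerase II subunit genes have the longest bars, and olfactory receptor genes are at 0.264% and 0%, against 42.6% and 38.7% of all genes.

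Among the genes with most core footprints found in both libraries were Nap1l4, Slc33a1, Ecd, Fam149b and Ptprg, with 6 each. Nap1l4 encodes a histone chaperone, Slc33a1 an acetyl-CoA transporter and Ptprg a receptor tyrosine phosphatase. Ecd and Fam149b start in opposite directions from 1 shared promoter, so they share footprints. At Nap1l4, 6 footprints were listed in replicate 1 and 4 in replicate 2, and all 6 of replicate 1 were overlapped by a replicate 2 footprint. A wide replicate 2 footprint can overlap several, and one with its middle outside the window also counts. Which of these held at Nap1l4 was not tested. The middles of the 6 replicate 1 footprints were at −70.5, −50, −31, −20.5, −1.5 and 46.5 bp. Peak values at these 5 genes ran from 2.60 (Ptprg) to 8.84 (Slc33a1) in replicate 1 and from 2.12 (Ptprg) to 6.38 (Nap1l4) in replicate 2. The highest of the 5 classes of peak value in replicate 1 began at 6.46, so Ecd, Fam149b and Ptprg were below it.

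Kdm6a, Cdca3, Ing3 and Rps12 followed with 5 each, as did Ndufs7, a subunit gene of respiratory complex I. Kdm6a, on the X chromosome, had 5 in replicate 1 and 6 in replicate 2, at a peak value of 15.8 and 9.74. Rps12 had 7 and 5. Polr2a had 4 in each library, at −77, −27.5, 17 and 28 bp, and the footprint at −27.5 is the one over its TATA box. Tbp, which encodes the TATA-binding protein, had 3 in each, at −79.5, −52 and 16 bp, and its upstream footprint covers a long SP/KLF site at −85 to −77. Nfyb and Psmc4 had 3 in each library as well.

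Some accessible promoters had none in either library. Etv3, an ETS repressor gene, had peak values of 3.49 and 3.58, Rpl12 4.78 and 3.47, and Hist1h2an 5.86 and 2.57. These values are above the median peak value of promoters without a footprint in each library (0.849 and 1.31). Atp5a1 (2.05 and 1.84) and Olfr1260 (0.946 and 0.660) also had a peak in both libraries and no footprint, and Olfr1260's value in replicate 2 was below that median.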

How the data were processed

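DNase-seq was done on 2 libraries of 1 group. The authors' lists were made per library on mm10 and derived from each library's alignment, per the text files deposited beside them; the sources used here name no aligner or caller and give no depth. Footprint intervals carry 1 deposited value, 0.01, on every line, read as a q-value threshold and not used. The deposited list of cut-rate FDR values (q-values) holds bases under 0.05. The deposited value of each peak is a signal that the authors scaled to the library, on a scale that is not stated.

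Positions are relative to the outermost 5′ end of 21938 protein-coding genes of GENCODE M21 (21922 distinct TSSs), and sequence is RefSeq GRCm38.p6, whose chromosome lengths hold all footprints. The 24 motifs and 10 gene lists, and the members, were chosen with earlier results of these data known. Long and short forms overlap, and every MEF2 match holds a TATA box on the opposite strand. Named genes were the 10 with most core footprints found in both libraries (ties by mean peak value), per list the 2 with most and the first in alphabetical order with a peak in both and no footprint, and per motif 2 footprints at the highest peak values, none on chromosome 18. A few named items and sequences are left out of the text. Shares carry 95% Wilson intervals and differences Newcombe intervals. On simulated data for 3000 TSSs, a motif difference of 21.1 points was recovered as 21.1. Alternatives are given in the closing section. Python 3.11.15, NumPy 2.4.6, pandas 2.3.3, matplotlib 3.10.9 and bedtools 2.31.1 were used.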

Additional observations from a re-analysis of the deposited data

How the results depend on the processing

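No called result changed direction among the settings run. Differences that were not called changed sign under at least 1 setting for CTCF, MEF2, NFI, REST and the TCT initiator, and the median position of the 3 REST matches (20 bp) was −6 bp with every transcript. Values are means of the 2 libraries. With footprints of at least 10 bp the core count was 11643.5 against 20130.5. With the 5′ end of every transcript 48.7% of genes had a core footprint against 40.6%, the density ratio was 3.23 against 2.78, and 66.3% of replicate 2's core footprints were shared against 69.9%. Among genes with a core peak 83.8% had a footprint. The density ratio was 2.33 with the shorter peak list, 2.39 with a flank to 500 bp, and, in settings chosen after seeing the data, 18.1 over all sequence, 6.16 over listed bases, 2.38 and 4.78 at TSSs with a core peak (longer list and listed bases) and 3.96 at all TSSs over listed bases. A reciprocal overlap of 50% left 47.4% shared. The mean width difference of 1.97 bp was 1.54 with a flank to 500 bp, 1.19 against the upstream and 2.86 against the downstream flank. The 2 motifs lower in the core (AP-1 and the CAGATG E-box) became 0 with a flank to 500 bp and 1 with the downstream flank. Leaving out each library in turn gave ranges of 18029 to 22232 footprints, 38.7 to 42.6% of genes, density ratios of 2.60 to 2.96, width differences of 1.87 to 2.07 and 13 motifs higher. Sharing and positions need both libraries and have no such value. Of the other values, for single motifs, 147 moved by less than the spread and 69 by more. Depth is not stated, and what it limits was not tested. No paired analysis was possible because there is only 1 group.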
